A study of Homo sapiens with 4 samples.

Results

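The replication-dependent histone genes were followed in OVSAYO cells, a human cell line from an ovarian clear cell carcinoma (CCC), as the spots whose RefSeq accession maps to a gene of the histone clusters. Of 72 protein-coding cluster genes in the RefSeq gene table, 65 had a probe, out of 17721 genes named through an accession on the array. They were 6 genes of the linker histone H1, 15 of H2A, 17 of H2B, 13 of H3 and 14 of H4, with 54 genes on chromosome 6, 10 on chromosome 1 and 1 on chromosome 12. Each of the 4 arrays held the RNA of 1 condition. NS-si cells had received a negative control (scramble) siRNA, and Sp1-si cells a pool of siRNAs against the transcription factor Sp1. After 40 h of culture per the labels, cells of both kinds were given 0.5 mM CoCl2, a hypoxia-mimicking agent, for 4 h (written NS-si → CoCl2 or Sp1-si → CoCl2) or were left without it. The legend of the study's array figure gives a shorter culture before CoCl2. All cells were therefore transfected, the control and Sp1 siRNAs came from different makers, and no array held untransfected cells. The study asked which genes CoCl2 activates in an Sp1-dependent manner. With 1 array per condition there was no replicate, so no test was run and every ratio compares a pair of arrays.

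Replication-dependent histone genes supply the nucleosome proteins during DNA synthesis, and the clusters hold many copies that encode the same or nearly the same protein. H2A, H2B, H3 and H4 form the core of the nucleosome and H1 binds the linker DNA. Their mRNAs normally end in a stem-loop bound by SLBP rather than in a poly(A) tail, and NPAT drives their transcription in S phase. The labelling started from an oligo-dT primer, which copies polyadenylated transcripts, and the share of stem-loop mRNA in a signal was not tested. Paralogs are similar in sequence. The files hold no probe sequences, so how far a probe also binds other members was not tested and each gene below stands for its probe.

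Signals are the background-subtracted intensities of the scanner software. Signals are printed before scaling between arrays. Ratios are differences of log2 signals after each array was set to its 75th percentile, and the error given is the SD between spots of 10-spot probes of similar signal (spot SD), which covers the spread on an array and not that between cultures. A gene is measured in a comparison where it was well above background on both arrays, and is called higher or lower from a log2 ratio of 1 in size. The SP1 probe, which checks the labels, read 553 with the control siRNA and 39.3 with Sp1 siRNA, and under CoCl2 430 and 38.8 in turn, log2 ratios of -3.77 and -3.87 for Sp1 siRNA. All 10 markers of CCC and epithelium were well above background on all 4 arrays, as were 3 of 4 leukocyte, 1 of 3 endothelial and 2 of 3 fibroblast markers with a probe, while PTPRC, PECAM1, CDH5 and PDGFRB of those lists were so on no array. Spots well above background numbered 33081 to 34542 of 43376 per array.

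Of the 65 histone genes, 58 were well above background on all 4 arrays, 5 on none (H1-1, H1-5, H1-6, H2BC1 and H4C7) and 2 on some arrays (H2AC16 and H4C16). The spot carried an outlier flag on all 4 arrays for H3C11, which therefore has no value, and on 1 array for H2AC11, H2AC21, H3-4 and H4C12, which have no ratio involving that array. This left 53 genes measured on all 4 arrays. No member had more than 1 spot per probe.

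**Figure D1:**
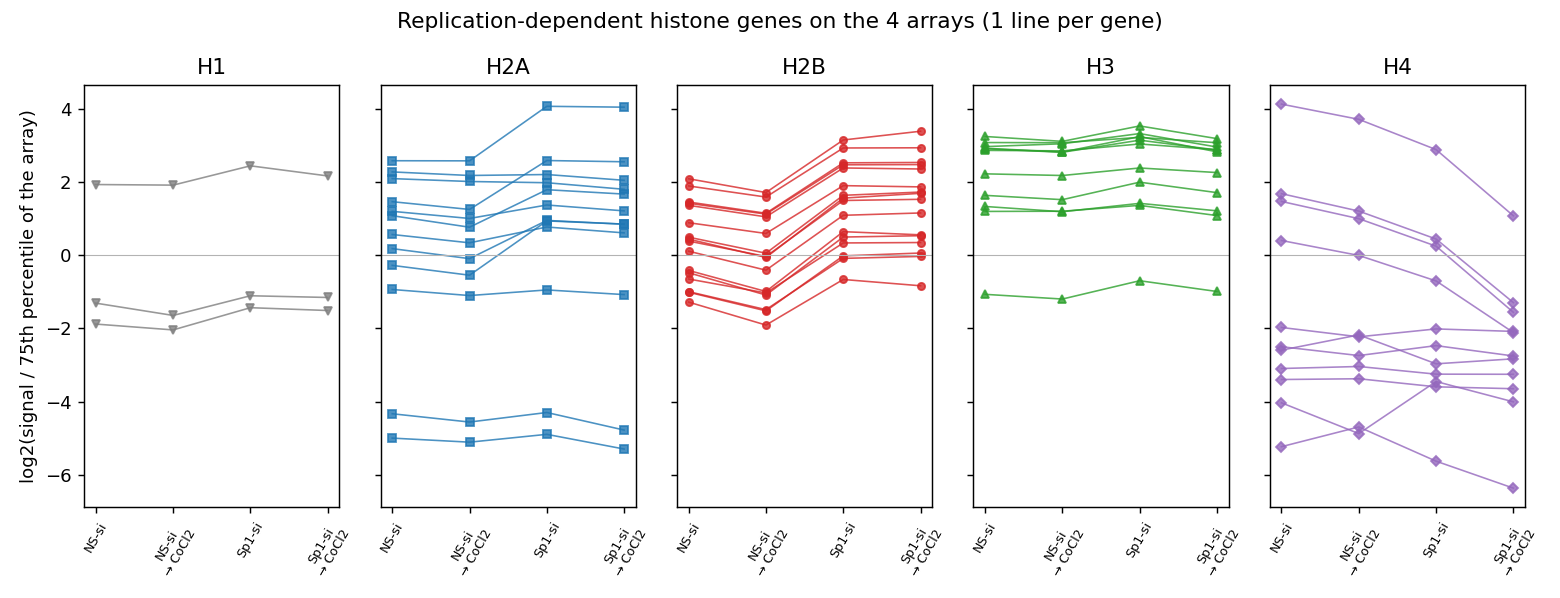
Histone genes on the 4 arrays, 1 panel per class and 1 line per gene, for the 53 genes measured on all 4 arrays; the y axis is the log2 signal over the array's 75th percentile and there are no replicates. The H2B lines step up together in Sp1-si cells, with 16 of 16 above NS-si, whereas H4C3, H4C13, H4C2 and H4C4 step down in Sp1-si cells and again in Sp1-si → CoCl2 cells.

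In Sp1-si cells the calls differed between histone classes. Of 54 members measured, 14 (25.9%) were called higher than in NS-si cells, against 5.05% of all 30530 probes measured, and 4 (7.41%) were called lower, against 5.38%. The median log2 ratio was 0.36 over the members and -0.02 over all probes. Of the 14, 10 were H2B genes and 4 H2A genes. The share called lower is near the background. The 4 called lower were all H4 genes, out of 11 H4 genes measured, and no H1 or H3 gene was called.

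H2B genes, which encode the partner of H2A in the nucleosome, had similar ratios. All 16 measured had a positive ratio to NS-si cells, from 0.62 for H2BC11 to 1.14 for H2BC10, with a median of 1.03 and a median spot SD of 0.08, and the sign held for all 16 under each of 5 other scalings. H2BC12 read 4848 with the control siRNA and 9716 with Sp1 siRNA, and under CoCl2 3195 and 13423 in turn. H2BC13 read 4231, 8353, 2934 and 9815 in the same order. The ratios of these 2 genes to NS-si were 1.06 ± 0.06 and 1.04 ± 0.06 (spot SD). H2BC10 read 1606, 3412, 1014 and 4248, a 2.21-fold higher level with Sp1 siRNA without CoCl2. On these unscaled signals all 3 genes were lowest in NS-si → CoCl2 and highest in Sp1-si → CoCl2 cells, but after scaling the CoCl2 ratio of H2BC13 in Sp1-si cells was 0.01 ± 0.07. Several H2B ratios lay near the threshold, and 6 of the 10 called stayed at 1 or more under each of the 5 scalings. H2BC21 had 3 probes with ratios of 0.97 to 1.5, and H2BC6 had 2 probes with 0.98 and 1.01.

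H2A genes did not move together. The median over the 13 measured was 0.20, with a range of -0.11 to 1.49, and 11 of 13 kept their sign under the 5 scalings (not H2AC1 and H2AC4, both within 0.1 of 0). H2AC19 read 6819 with the control siRNA and 18375 with Sp1 siRNA, and under CoCl2 5818 and 21162 in turn. Its level was 2.80-fold higher with Sp1 siRNA without CoCl2, the highest ratio of any member in that comparison. It is a near-identical copy of H2AC18, which had no probe of its own, so transcripts of both cannot be told apart. H2AC8 (942, 2102, 669 and 2317) and H2AC7 (3142, 6588, 2320 and 7533) had ratios of 1.21 and 1.12. On unscaled signals, both Sp1-si arrays of these 3 genes lay above both NS-si arrays. The share of all probes so ordered was not counted. H2AC15 instead read 5518, 5056, 4411 and 5307, so that its arrays overlapped and its ratio of -0.07 ± 0.07 was about the size of its spot SD. The fourth H2A gene called, H2AC16, was dim (9.72 without and 21.6 with Sp1 siRNA), with a ratio of 1.21 ± 0.37 that became 0.24 after a normexp background correction.

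The H2A ratios are given by chromosome. On chromosome 1, all 3 measured were at 0.71 or above (H2AC19, H2AC20 and H2AC25), while the brighter probe of H2AC21 had no ratio without CoCl2. On chromosome 6, the median of 10 genes was 0.14, and 3 genes were above 0.5. Probes of H2AC20 disagreed, with 0.71 from the brighter probe (2410 in NS-si cells) and -1.12 from the other (339), so its direction is uncertain. The second probe of H2AC21 was dim (18.1 in NS-si cells) and gave -0.22 ± 0.28. The second probe of H2AC14 gave 0.68 where the first gave 0.20.

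Many H2A and H2B genes lie side by side and are transcribed away from each other from a shared region. In the 8 such pairs measured, the H2B gene had the higher ratio in 6, and the difference ranged from -0.22 to 1.05 with a median of 0.57. The widest gap was that of H2AC15 and H2BC15, at -0.07 and 0.98. In H2AC8 with H2BC8 and H2AC7 with H2BC7, both genes were near 1 and the H2A gene was the higher.

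H3 genes shifted little by their shown probes. The 11 measured had ratios of 0.09 to 0.37 with a median of 0.23, all positive under the 5 scalings. The second probes of H3C4 and H3C2 gave 0.53 and 0.48, above that range, and that of H3C13 gave 0.14. H3C1 read 10789 with the control siRNA and 12675 with Sp1 siRNA, and under CoCl2 8414 and 11675 in turn, with a ratio of 0.29 ± 0.07. H3-4, a histone gene known for its expression in testis, read 52826, 60448, 47265 and 58154, with the flag on the Sp1-si array. The arrays of H3C1 differed by less than 2-fold throughout. Of the H1 genes, H1-2 (4347, 5960, 3676 and 5763), H1-3 and H1-4 (461, 510, 312 and 578) were measured, with ratios of 0.51, 0.45 and 0.20. Each of these 3 linker histone genes kept a positive ratio under the 5 scalings.

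H4 genes, most of which encode the same protein, held all the members called lower. H4C3 read 19892 with the control siRNA and 8101 with Sp1 siRNA, and under CoCl2 12762 and 2711 in turn. H4C13 read 3657, 1492, 2249 and 525 in the same order. H4C2 read 3157, 1304, 1949 and 437, and H4C4 read 1508, 675, 972 and 298. The order of the 4 arrays was the same in these 4 genes, and the share of all probes with this order was not counted. Their ratios to NS-si were -1.24, -1.24, -1.22 and -1.10, with spot SDs of 0.06 to 0.08, so that H4C3 in Sp1-si cells was at 0.423 of its NS-si level. All 4 stayed at -1 or below under the 5 scalings. The other H4 genes measured had ratios of -0.40 to 0.58, among them H4C11 (291, 272, 209 and 304) at -0.04 ± 0.09 and H4C5 (70.0, 101, 33.4 and 80.3) at 0.58 ± 0.12.

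**Figure D2:**
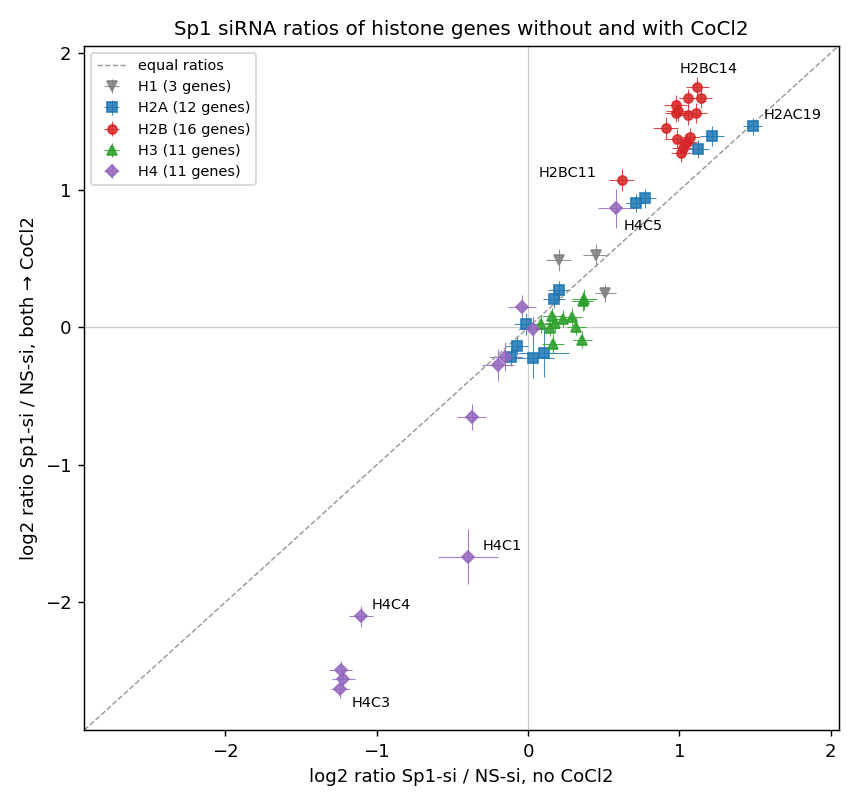
Log2 ratio of Sp1-si to NS-si without CoCl2 (x) against the same ratio with both cell kinds given CoCl2 (y), 1 point per gene measured in both, with bars of 1 spot SD and no replicates. The H2B points lie above the line of equal ratios, and H4C3, H4C13, H4C2 and H4C4 lie below it at -2.10 or less on the y axis.

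The promoters of 3 of the 4 H4 genes called lower are shown with those of H4C11, H2BC12 and H2AC19. H4C11 did not differ beyond its spot SD between Sp1-si and NS-si cells without CoCl2. Its ratio was 0.15 ± 0.09 for Sp1 siRNA under CoCl2 and -0.26 ± 0.08 for CoCl2 in NS-si cells. H2BC12 and H2AC19 shifted in the opposite direction to the H4 genes called lower. Each line gives the 200 bases before the transcription start, 5′ to 3′, from RefSeq (GRCh38.p14). Capitals mark the TATA box (TATAAA), the CCAAT box, the GC box that Sp1 binds (GGGCGG) and the octamer known from H2B promoters (ATTTGCAT), on either strand.
H4C13, chr6:27873535-27873734, minus strand: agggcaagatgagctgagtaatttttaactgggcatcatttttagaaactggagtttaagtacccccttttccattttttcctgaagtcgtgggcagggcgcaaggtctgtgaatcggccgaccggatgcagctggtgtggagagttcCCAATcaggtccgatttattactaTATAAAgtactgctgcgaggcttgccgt
H4C2, chr6:26027284-26027483, minus strand: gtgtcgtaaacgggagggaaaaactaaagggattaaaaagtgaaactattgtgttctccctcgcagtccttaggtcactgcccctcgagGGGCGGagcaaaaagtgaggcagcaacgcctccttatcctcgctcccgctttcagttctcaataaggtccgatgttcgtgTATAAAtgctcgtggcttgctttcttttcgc
H4C4, chr6:26189113-26189312, minus strand: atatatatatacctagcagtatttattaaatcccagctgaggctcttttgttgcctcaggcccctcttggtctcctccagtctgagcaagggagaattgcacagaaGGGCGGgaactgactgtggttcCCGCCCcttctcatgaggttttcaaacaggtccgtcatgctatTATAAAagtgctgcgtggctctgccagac
H4C11, chr6:27823892-27824091, plus strand: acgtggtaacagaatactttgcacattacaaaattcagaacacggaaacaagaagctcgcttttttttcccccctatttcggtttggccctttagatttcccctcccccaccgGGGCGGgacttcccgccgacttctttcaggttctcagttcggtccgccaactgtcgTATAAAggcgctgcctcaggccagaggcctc
H2BC12, chr6:27146859-27147058, minus strand: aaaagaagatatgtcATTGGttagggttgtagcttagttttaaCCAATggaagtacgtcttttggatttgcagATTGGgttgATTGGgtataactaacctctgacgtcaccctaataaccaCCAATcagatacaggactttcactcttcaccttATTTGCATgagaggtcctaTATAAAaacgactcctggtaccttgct
H2AC19, chr1:149850861-149851060, plus strand: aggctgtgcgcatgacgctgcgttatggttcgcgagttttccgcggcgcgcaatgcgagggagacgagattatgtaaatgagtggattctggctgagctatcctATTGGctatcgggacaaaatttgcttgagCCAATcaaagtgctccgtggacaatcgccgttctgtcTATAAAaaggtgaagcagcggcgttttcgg
A 300-base promoter was found for 60 of the 65 members, and none of the 4 motifs is part of another. The GC box was in 26.7% of them, against 44.6% of all 27305 promoters, and it was in 58.3% of the H4, 7.14% of the H2A and 5.88% of the H2B promoters. Within H4, it was in 2 of the 3 promoters of genes called lower (H4C2 and H4C4 but not H4C13). It was also in 3 of the 6 promoters of other H4 genes measured on all 4 arrays, H4C11 among them. TATAAA was in 3 of those 3 promoters and in 1 of those 6, that of H4C11. CCAAT was in 1 of those 3 and in 2 of those 6. The octamer was in 76.5% of the H2B and 78.6% of the H2A promoters and in 1.8% of all promoters. It was in 3 of 5 promoters of H2A genes with a ratio of at least 0.5 and in 5 of 6 of those below. TATAAA was in 66.7% of members and 12% of all promoters, and CCAAT in 85% and 35.7%, with all H1, H2A, H2B and H3 promoters holding CCAAT and 25% of the H4 promoters. These matches are descriptions of letters in a window and were not compared by a test.

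Under CoCl2, the distance between Sp1-si and NS-si cells was wider in H2B and in the same 4 H4 genes. Of 57 members measured, 20 (35.1%) were called higher in Sp1-si → CoCl2 than in NS-si → CoCl2 cells, against 6.05% of all 29988 probes, and 5 (8.77%) were called lower, against 9.22%. The second share is near the background. Without scaling, the shares of all probes called turned from 6.05% higher and 9.22% lower to 14% and 4.18%, and with median scaling to 7.72% and 7.42%. The members called numbered 19 to 23 higher and 4 to 6 lower over the alternatives tried.

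All 16 H2B genes were called higher, from 1.07 for H2BC11 to 1.75 for H2BC14, with a median of 1.5, and all stayed at 1 or more under the 5 scalings, while H2BC11 became 0.93 after normexp correction. H2BC14 read 1548 with the control siRNA and 3235 with Sp1 siRNA, and under CoCl2 936 and 4148 in turn, a 3.36-fold higher level with Sp1 siRNA under CoCl2. H2BC10, H2BC12 and H2BC21 (819, 1549, 460 and 1860) had ratios of 1.67, 1.67 and 1.62. The other 4 genes called were H2A genes, namely H2AC19 (1.46), H2AC21 (1.41), H2AC8 (1.39) and H2AC7 (1.30). The second probe of H2AC19 gave 0.99, just under the threshold. The call of H2AC21 rested on its brighter probe, since the dim one gave -0.38 ± 0.28 and the mean over both was 0.51, so its direction is uncertain. The H2B gene had the higher ratio in 9 of 9 neighbouring H2A and H2B pairs, by 0.01 (H2AC7 and H2BC7) to 1.69 (H2AC15 and H2BC15), with a median of 1.14.

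H4C3, H4C2, H4C13 and H4C4 had ratios of -2.63, -2.56, -2.50 and -2.10, and H4C3 in Sp1-si → CoCl2 cells was at 0.161 of its level in NS-si → CoCl2 cells. They stayed at -1 or below under the 5 scalings. The fifth member called lower, H4C1, was dim (30.5, 22.3, 37.9 and 15.7), with a ratio of -1.67 ± 0.20 that became -0.68 after a normexp background correction. The median of the 12 H4 genes measured was -0.46. H4C5 was at 0.87 ± 0.15, which became 0.27 after normexp correction. The 12 H3 genes measured stayed between -0.12 and 0.21, and 8 of them kept their sign under the 5 scalings. The second probes of H3C4 and H3C2 read higher ratios than the shown probes, 0.93 against 0.06 and 0.70 against 0.08.

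In NS-si cells no shown probe of a histone gene moved past 2-fold with CoCl2. Of 54 members measured, 0 were called higher, against 4.06% of all 30506 probes, and 0 lower, against 3.85%. Without scaling these background shares were 2.47% and 6.58%, and after normexp correction 2.18% and 1.22%. The median ratio was -0.23 over the members and 0.02 over all probes, and 47 of the 54 members were below 0.

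The H2B genes were again alike. All 16 were lower in NS-si → CoCl2 than in NS-si cells, with ratios of -0.63 to -0.29 and a median of -0.43, which kept their sign under the 5 scalings. H2BC11 (470, 694, 260 and 722), H2BC21 and H2BC5 (856, 1715, 492 and 1892) had the lowest of them at -0.63, -0.61 and -0.57. The other probes of H2BC21 gave -1.03 and -1.07, past the threshold that the shown probe did not reach. H4C5 was at -0.84 ± 0.14, below the shown probe of any other member measured on all 4 arrays, but became -0.22 after normexp correction. H4C1 at 0.54 ± 0.21 and H4C8 (189, 141, 216 and 181) at 0.42 ± 0.10 were the highest, followed by H3C12 (8902, 10972, 8040 and 9953) at 0.08 and H4C9 (134, 116, 119 and 135) at 0.05, both of which turned below 0 without scaling. H2A genes were slightly lower (median -0.20), where 11 of 12 kept their sign under the 5 scalings, and H3 genes lay near 0 (median -0.07), where 8 of 12 did. H4C3, H4C13, H4C2 and H4C4 had ratios of -0.41, -0.48, -0.47 and -0.41.

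In Sp1-si cells the shown H2B probes had CoCl2 ratios around 0, and the same 4 H4 genes were lower still. Of 56 members measured, 0 were called higher, against 3.43% of all 30014 probes, and 4 (7.14%) were called lower, against 5.79%, which is near the background. Without scaling these background shares were 6.1% and 3.4%, and with median scaling 4.44% and 4.57%. The 4 called lower were H4C3, H4C2, H4C13 and H4C4, at -1.81, -1.81, -1.74 and -1.41, and they stayed at -1 or below under the 5 scalings. Of the H2B genes, 12 of 16 were above 0 with a median of 0.02, and 6 of 16 kept their sign under the 5 scalings. The other probes of H2BC21 gave -0.61 and -0.80 where the shown one gave 0.04. H2BC12 had the highest ratio at 0.24 ± 0.07, followed by H4C8 at 0.14 ± 0.10, H2BC14 at 0.13 ± 0.07 and H2BC10 at 0.09 ± 0.07. By their shown probes, the 11 H3 genes measured lay at -0.42 to -0.12, 7 of which kept their sign under the 5 scalings. The dim H2AC16 was well above background in Sp1-si but not in Sp1-si → CoCl2 cells. With the lowest well-above-background signal of the latter array (10.2) as its limit there, its level was 2.48-fold lower or more. This estimate leaves out its spot SD of 0.35 and is uncertain for so dim a gene.

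**Figure D3:**
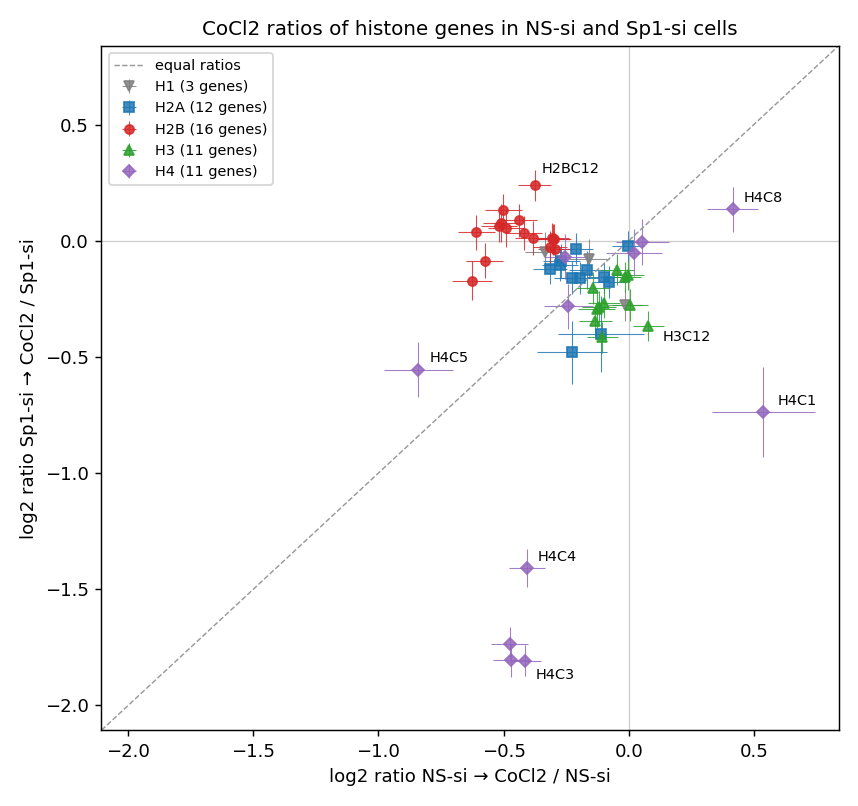
Log2 CoCl2 ratio in NS-si cells (x) against that in Sp1-si cells (y), 1 point per gene measured on all 4 arrays, with bars of 1 spot SD and no replicates. The H2B points lie left of 0 on the x axis with a median of -0.43 and around 0.02 on the y axis, and H4C3, H4C2, H4C13 and H4C4 lie at -1.41 or less on the y axis.

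The difference between the CoCl2 ratios, Sp1-si minus NS-si, was 0.26 to 0.64 for the 16 H2B genes (median 0.47), all above 0 under the 5 scalings, and the H2B gene exceeded its H2A neighbour in 8 of 8 pairs measured. For H4C3, H4C2, H4C13 and H4C4 it was -1.39, -1.34, -1.26 and -1.0, with spot SDs of 0.09 to 0.11. These 4 remained below 0 under the 5 scalings, but without scaling none was at -1 or below, with -0.94, -0.88, -0.81 and -0.55 in the same order. The shown probes of the 11 H3 genes had small negative differences (median -0.17) that turned above 0 without scaling. The second probes of H3C4 and H3C2 gave 0.39 ± 0.12 and 0.23 ± 0.13, and that of H3C13 gave -0.18, so the sign also depended on the probe.

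Genes that make and process histone mRNA showed no call for Sp1 siRNA. The 18 genes had a median ratio to NS-si of -0.12, with 0 called in either direction, against 5.05% of all probes called higher and 5.38% lower. In a set of this size, 0 is near those shares. SLBP, which binds the stem-loop, read 5979 with the control siRNA and 5829 with Sp1 siRNA, and under CoCl2 5114 and 9427 in turn, highest on the last array. NPAT read 209, 256, 190 and 210, and CASP8AP2, which is needed for histone gene transcription, read 429, 476, 263 and 440. Their ratios to NS-si were 0.02 for SLBP, 0.35 for NPAT and 0.21 for CASP8AP2. MBLAC1, a nuclease of histone pre-mRNA, had the ratio largest in size at 0.94, followed by LSM10 (-0.62), a protein of the U7 particle, ERI1 (-0.59), an exonuclease at the stem-loop, and MIF4GD (-0.58), a partner of SLBP. In Sp1-si cells under CoCl2, 2 of the 18 were called higher, ERI1 at 1.30 and ZNF473 at 1.15, against 3.43% of all probes. Both were also higher with CoCl2 in NS-si cells, at 0.99 and 0.81, under the threshold.

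Genes of DNA replication and S phase were mostly lower with Sp1 siRNA. Of 31 genes, 25 were below 0 in Sp1-si against NS-si cells, 5 were called lower and 0 higher, with a median of -0.36, against 5.38% and 5.05% of all probes. CCNE2 (-1.49, a cyclin of S phase entry), CDC45 (-1.34, a part of the replicative helicase), CCNA2 (-1.31, the S phase cyclin) and E2F8 (-1.27, a transcription factor of the cell cycle) had the ratios largest in size. CCNE2 (30.9 with the control and 10.6 with Sp1 siRNA) and E2F8 (28.1 and 11.2) were dim. Their spot SDs were 0.24 and 0.38, so these 2 values are uncertain. Under CoCl2 the median was -0.15, with 3 of 30 called lower, near the 9.22% of all probes. The part of these replication genes in the histone ratios was not tested.

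Histone variants expressed outside S phase, whose mRNAs mostly carry poly(A) tails, had a median ratio of -0.22 in Sp1-si against NS-si cells. Of 11 measured, 0 were called higher, against 5.05% of all probes, and 2 lower, against 5.38%. In a set of this size, 0 is near the first share. H2AX, the variant phosphorylated at DNA breaks, whose mRNA can also end in a stem-loop, was at -1.14, CENPA, the centromeric H3, at -1.05, H2AZ2 at -0.32 and H1-10 at -0.29. Among 18 histone chaperones, ATRX (1.16) was called higher, and ASF1B (-1.42), HJURP (-1.32) and ANP32E (-1.27) were called lower, with a median of 0.32, against 5.05% and 5.38% of all probes. For 18 genes, 1 called higher is near the first share.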

How the data were processed

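The deposited intensities of 4 single-colour arrays (1 per condition, on 1 slide) were used. Per the file headers, the authors' scanner software, Agilent Feature Extraction 10.5.1.1, wrote them after background subtraction and detrending, without normalization between arrays; their value table equals these intensities times 1 constant per array. The other steps upstream are not given in the sources used here. Here, log2 signals of non-control spots were set to the 75th percentile of each array, outlier spots were left out, and a gene was shown by the probe whose mean signal was highest. A ratio was called from 1 in size on the log2 scale (2 spot SDs for opposite CoCl2 ratios). No test could be run on 1 array per condition, and that number limits precision. The spot SD is the median of the 50 10-spot probes nearest in signal, among 264 such probes. Members were found by RefSeq accession. In each class, the 2 genes of highest mean signal and, over members measured on all 4 arrays, the 4 highest and 4 lowest ratios of each comparison are named with all signals. Other lists give up to 4 genes with the largest ratios, plus SLBP, NPAT and CASP8AP2. Members and lists were chosen with earlier results of these data known, and motif groups and paired genes after the values were seen. The counting was tested on simulated data. Alternatives were other scalings, filters, thresholds and background corrections. Since the array design was annotated on an older build, the gene table gave names and neighbours only. Python 3.11.15, numpy 2.4.6, pandas 2.3.3, matplotlib 3.10.9, R 4.3.3 and limma 3.58.1 were used.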

Additional observations from a re-analysis of the deposited data

Results flagged for a closer look

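The CoCl2 ratios of H2BC12 had opposite signs in the 2 kinds of cells, -0.38 ± 0.06 with the control siRNA and 0.24 ± 0.07 with Sp1 siRNA (spot SD), a difference of 0.61. Those of H4C1 were 0.54 ± 0.21 and -0.74 ± 0.19, a difference of -1.27 in a dim gene, which became -0.58 after normexp correction. Each sign held under the 5 other scalings. With 1 array per condition these differences were not tested.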

How the results depend on the processing

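No paired analysis was possible because each condition had 1 array, so that replicates cannot be left out either. Signs and calls of the 16 H2B genes under CoCl2 and of H4C3, H4C13, H4C2 and H4C4 for Sp1 siRNA held under each of the 5 other scalings. Other medians depended on the setting, and the cause was not tested. Without scaling, the median of all probes shifted from -0.06 to 0.33 for Sp1-si → CoCl2 over NS-si → CoCl2, from 0.02 to -0.21 for CoCl2 in NS-si cells and from -0.02 to 0.21 in Sp1-si cells; the medians of all members, H2B and H4 were then 0.60, 1.90 and -0.065 for Sp1 siRNA under CoCl2, -0.46, -0.65 and -0.48 for CoCl2 in NS-si cells, with 1 member called lower, 0.11, 0.25 and -0.19 for CoCl2 in Sp1-si cells, and 0.49, 0.93 and 0.17 for the difference of the CoCl2 ratios. With median scaling, which moved the median of all probes to 0.05 and 0.09, they were 0.32, 1.61 and -0.35 for Sp1 siRNA under CoCl2 and -0.014, 0.13 and -0.31 for CoCl2 in Sp1-si cells. Quantile normalization gave H4 medians of -0.35 and -0.32 for these comparisons, and members on all 4 arrays only gave -0.65 and -0.55. The authors' value table gave -0.31 for all members and -0.51 for H2B for CoCl2 in NS-si cells. Without the filter on dim members, the H4 medians were -0.20 for Sp1 siRNA, -0.25 for Sp1 siRNA under CoCl2 and -0.49 for the difference, and 1 member was called lower by CoCl2 in NS-si cells. A normexp correction, taken on median signals because the files hold no mean signals and so chosen after seeing the data, gave H4 medians of -0.10 for Sp1 siRNA and -0.26 for CoCl2 in Sp1-si cells, and an H2B median of 1.41 for Sp1 siRNA under CoCl2. At 1.5-fold, 22 members were higher with Sp1 siRNA and 3 lower with CoCl2 in NS-si cells. Membership by gene name and normexp on mean signals were not run. Signal limits H4C1, H4C16 and H2AC16, which lie near the background, and paralogs limit every single-gene value.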
